A study of Mus musculus with 17 samples.

Results

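In mouse macrophages, 1297 of the 24927 STAT6 peaks listed 2 h after interleukin 4 (IL4) met 3 conditions: a STAT6 peak was also listed after 2 h of interferon gamma (IFNg) plus IL4, and both a JUNB and a CEBPB peak of cells held for 4 h in IFNg+IL4 overlapped it. An overlap of 1 bp was enough, and only chromosomes 1 to 19, X and Y outside the input peaks were used. The sites were chosen by the peaks of these 4 lists, so their values describe the STAT6-JUNB-CEBPB sites and support nothing further. Shared STAT6 sites with JUNB only (1849), with CEBPB only (1691) and with neither (12298) served for comparison.

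Bone marrow of C57BL/6 mice was differentiated to macrophages in medium conditioned by L929 cells, and cultures were used at day 7. STAT6 was mapped after 2 h of IFNg+IL4 (100 ng/ml IFNg and 10 ng/ml IL4) and after 2 h of IL4 alone (10 ng/ml). JUNB, CEBPB and IRF1 were mapped after 4 h of IFNg+IL4, after 4 h of IFNg alone (100 ng/ml) and in untreated cells. For MYC there were lists of untreated cells, of IFNg+IL4 at 2 h and 4 h, and of IL4 at 2 h and 4 h. An input library came from untreated cells. All cells came from the same strain and were cultured the same way. The titles of the IRF1, JUNB, CEBPB and MYC libraries mark the cells as wild type (wt), and those of the STAT6 and input libraries carry no such mark. The labels do not give the number of animals per library. Each group was 1 ChIP-seq library with no replicate, so each value below describes these libraries, no test between groups was possible and no p-value is given. STAT6 was mapped at 2 h but JUNB and CEBPB at 4 h, so their overlap joins 2 time points of separate cultures.

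STAT6 is the transcription factor that the IL4 receptor activates through JAK kinases, and its dimers bind a palindrome of TTC and GAA with a spacer of 4 bases. JUNB is a subunit of AP-1, which forms with FOS, BATF or ATF partners and binds TGANTCA. CEBPB is a leucine zipper factor of myeloid cells that binds TTGCNNAA. In macrophages AP-1 and C/EBP factors occupy enhancers already before a cytokine is added, and STAT factors are known to bind many of the same elements once activated.

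The files hold peak positions but no sequence, so letters could be read only where a site lay in a RefSeq promoter window (GRCm38.p6, 250 bases before to 50 bases after a gene start). A STAT6-JUNB-CEBPB summit lay in 30 of 21238 such windows, which belonged to 25 genes and held 27 sites. The windows of 7 of these genes are shown 5′ to 3′ on the gene's strand, because they carry letters of the 3 factors near the STAT6 summit or belong to genes named further on. Capitals mark matches, on either strand, to the STAT6 palindrome, to the STAT form with a spacer of 3 bases (TTCNNNGAA), to TGANTCA, to TTGCNNAA or to the C/EBP-ATF composite TGATGCAA.
Tfec, chr6:16898392-16898691, minus strand: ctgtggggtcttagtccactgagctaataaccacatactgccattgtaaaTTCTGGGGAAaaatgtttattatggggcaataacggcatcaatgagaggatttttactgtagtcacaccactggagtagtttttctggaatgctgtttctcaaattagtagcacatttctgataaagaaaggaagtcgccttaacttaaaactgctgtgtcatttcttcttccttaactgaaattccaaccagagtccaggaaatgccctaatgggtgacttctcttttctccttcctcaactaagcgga
Serpina3f, chr12:104214294-104214593, plus strand: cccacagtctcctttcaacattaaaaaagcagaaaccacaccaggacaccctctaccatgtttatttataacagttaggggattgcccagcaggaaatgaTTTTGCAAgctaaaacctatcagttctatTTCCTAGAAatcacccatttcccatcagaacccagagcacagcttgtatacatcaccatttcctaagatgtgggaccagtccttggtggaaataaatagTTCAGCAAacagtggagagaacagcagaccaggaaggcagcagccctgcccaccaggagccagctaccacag
Ralgds, chr2:28533214-28533513, plus strand: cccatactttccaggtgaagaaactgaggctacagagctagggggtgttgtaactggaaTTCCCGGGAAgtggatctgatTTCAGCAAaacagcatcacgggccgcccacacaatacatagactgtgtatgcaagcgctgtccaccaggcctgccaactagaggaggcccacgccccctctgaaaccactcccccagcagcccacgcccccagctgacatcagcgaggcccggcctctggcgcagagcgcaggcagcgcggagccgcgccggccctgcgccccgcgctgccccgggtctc
Tnfaip3, chr10:19015361-19015660, minus strand: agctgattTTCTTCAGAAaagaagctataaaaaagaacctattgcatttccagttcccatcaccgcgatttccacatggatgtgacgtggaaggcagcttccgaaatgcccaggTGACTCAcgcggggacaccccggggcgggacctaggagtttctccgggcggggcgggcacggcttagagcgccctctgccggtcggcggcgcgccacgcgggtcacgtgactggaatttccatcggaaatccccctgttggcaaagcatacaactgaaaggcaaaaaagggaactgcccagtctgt
Il1rn, chr2:24345041-24345340, plus strand: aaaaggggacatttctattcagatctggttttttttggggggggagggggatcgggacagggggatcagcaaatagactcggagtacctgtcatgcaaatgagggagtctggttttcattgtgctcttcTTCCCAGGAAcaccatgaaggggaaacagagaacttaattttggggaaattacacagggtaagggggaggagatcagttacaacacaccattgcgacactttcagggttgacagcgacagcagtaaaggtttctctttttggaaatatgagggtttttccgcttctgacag
Atf3, chr1:191183284-191183583, minus strand: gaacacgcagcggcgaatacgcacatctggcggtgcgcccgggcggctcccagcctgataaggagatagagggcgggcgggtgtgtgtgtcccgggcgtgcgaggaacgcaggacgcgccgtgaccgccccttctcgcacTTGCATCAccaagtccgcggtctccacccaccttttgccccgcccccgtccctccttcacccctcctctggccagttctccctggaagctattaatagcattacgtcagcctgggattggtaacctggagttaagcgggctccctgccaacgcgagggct
Clec12a, chr6:129349994-129350293, plus strand: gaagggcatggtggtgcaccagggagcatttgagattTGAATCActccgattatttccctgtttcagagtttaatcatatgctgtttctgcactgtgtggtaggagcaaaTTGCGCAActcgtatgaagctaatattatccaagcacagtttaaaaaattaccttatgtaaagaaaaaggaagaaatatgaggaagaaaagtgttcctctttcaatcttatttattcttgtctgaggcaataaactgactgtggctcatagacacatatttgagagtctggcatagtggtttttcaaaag
In the window of Tfec, a transcription factor gene of macrophages, the palindrome TTCTGGGGAA begins 27 bases downstream of the STAT6 summit. In that of Serpina3f, a serine protease inhibitor gene, TTCCTAGAA begins 13 bases before the summit and the C/EBP match TTTTGCAA 42 bases before it. The window of Ralgds, an exchange factor for Ral GTPases, holds TTCCCGGGAA and TTCAGCAA, which begin 11 bases before and 10 bases after the summit. That of Tnfaip3, which encodes an inhibitor of NF-kappaB signalling, holds TTCTTCAGAA 27 bases before and TGACTCA 79 bases after the summit. In the window of Il1rn, the interleukin 1 receptor antagonist, TTCCCAGGAA begins 45 bases before the summit. Atf3 and Clec12a have no STAT match in the windows shown: that of Atf3 holds the composite as TTGCATCA 31 bases before the summit, and that of Clec12a, an inhibitory lectin receptor of myeloid cells, holds TTGCGCAA 11 bases and TGAATCA 84 bases before it.

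Over the 30 windows, the STAT6 palindrome occurred in 8 (26.7%, exact 95% interval 12.3 to 45.9%), against 11.6% of the 2155 windows with any STAT6 IL4 summit and 6.34% of all 21238 windows. TGANTCA occurred in 7 of 30 windows (23.3%, 9.93 to 42.3%), against 6.45% of windows with any STAT6 summit and 6.99% of all windows. TTGCNNAA occurred in 7 of 30 (23.3%), against 8.35% and 10.2%, and TGATGCAA in 2 of 30 (6.67%), against 0.974% and 0.866%. The spacer of 3 bases was found in 4 of 30 windows (13.3%), against 10.0% and 7.69%. The PU.1 core GAGGAAGT was in 4 of 30 windows (13.3%), against 6.31% and 3.13%. For the interferon element, GAAA repeated after 2 free bases, the count was 2 of 30 (6.67%), against 4.97% and 3.34%, and for CACGTG, the E-box of MYC, 3 of 30 (10.0%), against 11.3% and 7.84%. The intervals are wide because 30 windows are few, and some genes have more than 1 window over the same site. A match is letters only, and windows without one may hold the factor's element in another spelling.

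Each condition of the rule had its own background: 68.7% of all STAT6 IL4 peaks overlapped the STAT6 list of IFNg+IL4, 13.8% the JUNB list and 14.1% the CEBPB list of IFNg+IL4. The sites took up 1330 of the 5556 JUNB peaks with IFNg+IL4 (23.9%) and 1324 of the 6278 CEBPB peaks (21.1%), but 1330 of the 21481 STAT6 peaks (6.19%). A further 64 STAT6 IL4 peaks overlapped JUNB and CEBPB but no STAT6 peak of IFNg+IL4, and their median −log10 p in the IL4 list was 11.03. Few sites rested on an overlap of under 20 bp, but many overlaps covered only a part of a peak. Where each overlap had to cover 50% of both peaks, 551 of the 1297 sites remained. For each site the smallest of its 3 overlaps had a median of 207 bp, and 3 sites rested on less than 20 bp: 1 bp near Ptp4a1, 2 bp in Fat3 and 8 bp in Pdgfc. Just outside the rule, 11 sites with JUNB only lay within 100 bp of a CEBPB peak, the nearest at 0 bp, and 6 sites with CEBPB only lay within 100 bp of a JUNB peak, the nearest at 25 bp.

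The STAT6-JUNB-CEBPB sites were among the strong and wide STAT6 peaks. In the deposited lists −log10 p ranks a peak against the control within its own library, and values of different libraries are not on one scale. In the STAT6 IL4 list the sites had a median −log10 p of 55.2 (quartiles 23.8 to 159.6), against 32.7 for shared sites with JUNB only, 34.1 with CEBPB only, 24.3 with neither and 17.9 for all STAT6 IL4 peaks. Their median width was 441 bp, against 356 bp, 365 bp, 296 bp and 258 bp in the same order. The share of all STAT6 IL4 peaks that met the rule was 0.842% in the weakest of 10 equal strength classes and 17.0% in the strongest, and 32.7% of the sites fell in that strongest class. A wide peak overlaps other lists more easily. Shares of the comparison sets are also given weighted to the sites' distribution over the 10 classes. These are classes of −log10 p, so the weighting matches strength and does not hold width equal.

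**Figure D1:**
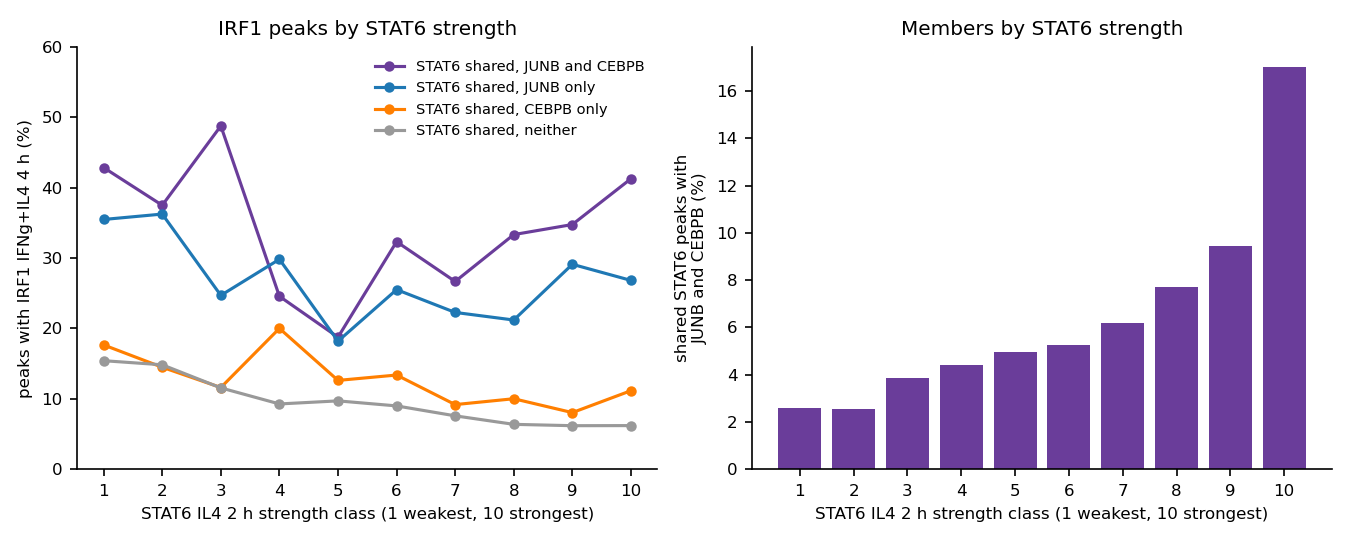
Left, share of shared STAT6 peaks with an IRF1 peak of IFNg+IL4 4 h (y axis, %) in each of 10 classes by −log10 p in the STAT6 IL4 2 h list (x axis), for sites with JUNB and CEBPB, JUNB only, CEBPB only and neither. Right, share of shared STAT6 peaks in each class that also overlapped JUNB and CEBPB, which is 2.60% in class 1 and 17.0% in class 10; strength was used by no condition but moves with them.

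The 15 strongest sites by the STAT6 IL4 list carried −log10 p values between 363 and 405 there and between 298 and 418 in the STAT6 list of IFNg+IL4. The strongest lay 3.3 kb from Tarm1, which encodes an activating receptor of myeloid cells (chr7:3505585-3506374). Its −log10 p was 395 for STAT6 with IFNg+IL4 and 405 with IL4, 11.2 for JUNB with IFNg+IL4, and 48.8, 43.4 and 12.2 for CEBPB with IFNg+IL4, with IFNg and untreated. MYC peaks of 13.2 at 2 h and 16.4 at 4 h of IL4 overlapped it, and no JUNB peak was listed there with IFNg or in untreated cells.

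The second, 1.8 kb from Il1rl2, which encodes a receptor of the interleukin 1 receptor family (chr1:40321863-40322985), had 415 and 403 for STAT6 with IFNg+IL4 and with IL4. JUNB was listed at 13.5 with IFNg+IL4 alone, and CEBPB at 85.5, 22.6 and 23.3 with IFNg+IL4, IFNg and untreated. No IRF1 or MYC peak overlapped it. The site 4.8 kb from Ccl1, a chemokine gene, also lacked JUNB outside IFNg+IL4 (chr11:82171511-82172326). STAT6 stood at 408 with IFNg+IL4 and 389 with IL4, JUNB at 22.7 with IFNg+IL4 alone, and CEBPB at 176, 273 and 85.6 with IFNg+IL4, IFNg and untreated. Beside these it held IRF1 at 8.0 with IFNg+IL4 and MYC at 32.5 and 11.7 after 2 h and 4 h of IL4.

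The site inside Ppp2r3a, a regulatory subunit gene of protein phosphatase 2A, had 392 for STAT6 in both lists, 24.3 for JUNB and 26.9 for CEBPB with IFNg+IL4, and no further peak in any list. Each of the other 14 had a JUNB or CEBPB peak with IFNg or in untreated cells. The site 3.9 kb from Zc3h12a, whose product Regnase-1 degrades cytokine transcripts, was listed for all 5 factors. Its values were 395 and 381 for STAT6 with IFNg+IL4 and IL4, 63.2, 34.4 and 43.8 for JUNB with IFNg+IL4, IFNg and untreated, 25.05 and 17.7 for CEBPB with IFNg+IL4 and IFNg, and 10.5 for IRF1 with IFNg+IL4. MYC peaks there had 12.8 and 14.4 after 2 h and 4 h of IFNg+IL4, and 33.5 and 27.1 after 2 h and 4 h of IL4. The site 9.5 kb from Slc30a4, a zinc transporter gene, was also listed for all 5, with 74.8 and 9.8 for IRF1 with IFNg+IL4 and with IFNg. So were the sites of Ccl1, Chn2, Klf7, Ovol2 and P2ry1.

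The remaining sites of the 15 lay near or in Tnk2 and Cblb (a tyrosine kinase and a ubiquitin ligase of receptor signalling), Chn2 and Clec16a (a Rac-directed GTPase-activating protein and an autophagy factor), Rbpj, Ovol2 and Klf7 (transcription factors), Flrt2 (a membrane protein) and P2ry1 (an ADP receptor). The sites at Chn2 and Clec16a lay inside the gene, and that of Flrt2 lay 153 kb away. Over all 15, a JUNB peak was listed at 4 with IFNg and at 6 in untreated cells, and a CEBPB peak at 12 with IFNg and at 7 in untreated cells. An IRF1 peak of IFNg+IL4 was listed at 8, and MYC after 2 h of IL4 at 10. The JUNB counts with IFNg and untreated rest on unlike limits. By its values the untreated JUNB list was limited by p and not by q, and 5355 of its 9229 peaks had −log10 q of at least 2. Its peaks at the sites of Klf7, Cblb and Flrt2 had −log10 p of only 2.95, 4.16 and 4.61.

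**Figure D2:**
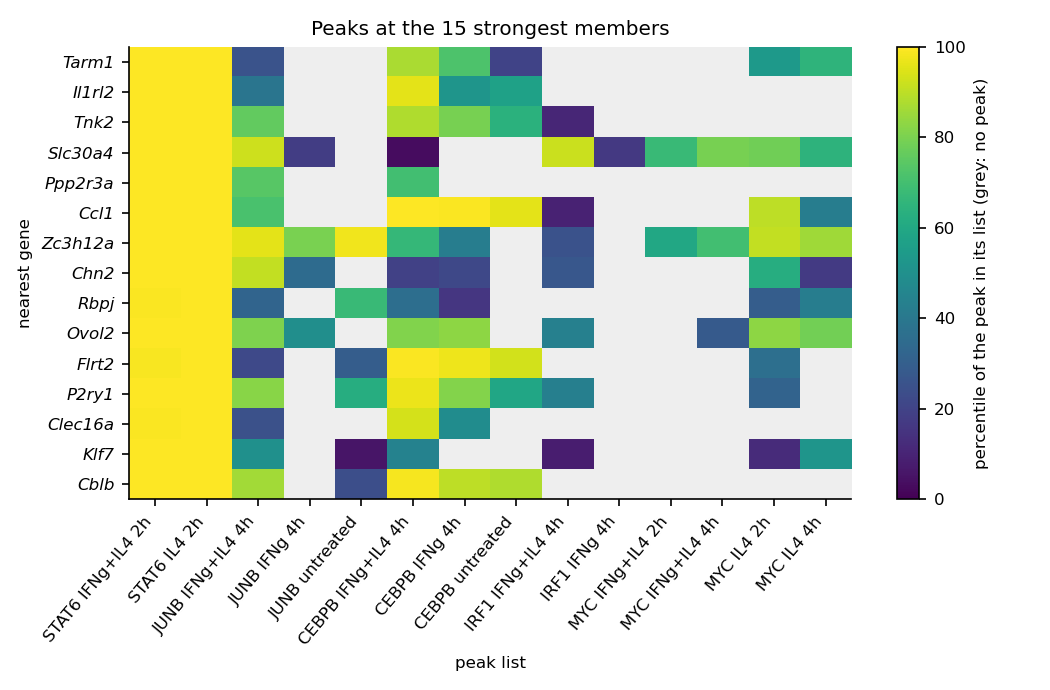
Percentile of the overlapping peak within its own list (colour, 0 to 100; grey where no peak overlapped) for the 15 strongest STAT6-JUNB-CEBPB sites, named by nearest gene (rows), in 14 peak lists (columns). The 2 STAT6 columns are near 100 throughout, while JUNB with IFNg is filled at 4 of 15 rows and JUNB untreated, a list limited by p and not by q, at 6.

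The sites with the strongest JUNB or CEBPB peaks were other sites than the strongest for STAT6. The 5 strongest by JUNB with IFNg+IL4 lay in Cd36, a scavenger receptor gene, 27.9 kb from Slc25a24, a mitochondrial carrier, in Creb5, a leucine zipper factor gene, 56.8 kb from Nfkbiz, which encodes the regulator IkappaBzeta, and 106 kb from Fmo9, a monooxygenase. At Cd36 (chr5:17854373-17854927) JUNB had 199, 258 and 10.5 with IFNg+IL4, IFNg and untreated, and CEBPB 38.3, 127 and 12.8. STAT6 had 246 with IFNg+IL4 and 83.5 with IL4 there, and IRF1 57.1 and 16.4 with IFNg+IL4 and IFNg. At the Nfkbiz site JUNB had 152, 281 and 87.9 and CEBPB 78.7, 174 and 23.5 in the same 3 states, while STAT6 had 42.0 with IFNg+IL4 and 34.0 with IL4. All 5 of these sites held JUNB in every state and an IRF1 peak of IFNg+IL4.

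The 5 strongest by CEBPB with IFNg+IL4 lay in Tnfaip8, 28.3 kb from Ccl2, in H2aj, 69.7 kb from Cebpb itself and in Dock4. At the site nearest Cebpb (chr2:167760015-167760372) CEBPB had 183, 338 and 162 with IFNg+IL4, IFNg and untreated, JUNB 31.8, 18.7 and 12.7, and STAT6 22.6 with IFNg+IL4 and 39.0 with IL4. At the site 28.3 kb from Ccl2, a monocyte chemokine gene, CEBPB had 189, 319.6 and 149 in those states and STAT6 224 with IFNg+IL4 and 229 with IL4. All 5 held CEBPB in every state. The 5 weakest sites by the STAT6 IL4 list were near Dtnbp1, in Fat3, near Zfp703, near Sfmbt2 and in Dpy19l3, with −log10 p between 4.7 and 5.9 there. The one in Dpy19l3 had 146 for STAT6 with IFNg+IL4, against 5.9 with IL4.

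Summits of the factors lay close together. Measured from the STAT6 IL4 summit, the median distance was 18 bp to the STAT6 summit of IFNg+IL4, 35 bp to JUNB and 40 bp to CEBPB with IFNg+IL4, and 86.4% of JUNB and 82.3% of CEBPB summits lay within 100 bp. The comparison sets were alike: 35 bp to JUNB at shared sites with JUNB only (86.0% within 100 bp) and 36 bp to CEBPB with CEBPB only (83.6%). JUNB and CEBPB summits were a median of 41 bp apart (quartiles 19 to 79 bp), with 83.3% within 100 bp. The IRF1 summits of IFNg+IL4, which the rule did not use, lay at a median of 54 bp from the STAT6 summit (452 sites, 47.6% within 50 bp), and the MYC summits of IL4 2 h at 64 bp (423 sites, 68.1% within 100 bp). At shared sites with neither JUNB nor CEBPB the same medians were 55 bp for IRF1 and 66 bp for MYC. Fragment lengths are not known here, and the distances do not show whether the factors sat on separate elements.

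**Figure D3:**
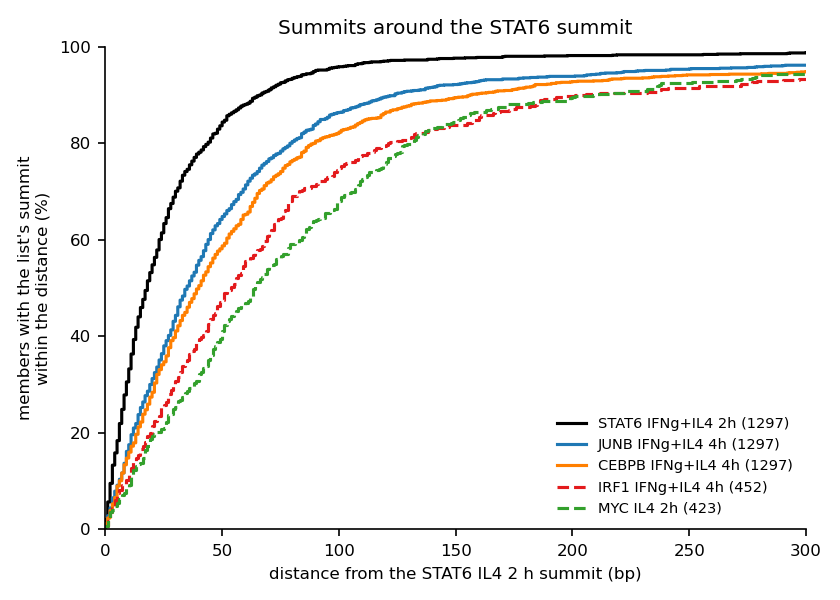
Cumulative share of STAT6-JUNB-CEBPB sites (y axis, %) whose strongest overlapping peak of a list had its summit within a given distance of the STAT6 IL4 2 h summit (x axis, bp, shown to 300 bp), for the STAT6, JUNB and CEBPB lists the rule used (solid) and for IRF1 IFNg+IL4 4 h and MYC IL4 2 h (dashed), with the number of sites in brackets. The order at 100 bp is STAT6 (95.9%), JUNB (86.4%), CEBPB (82.3%), IRF1 and MYC (68.1%).

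Most sites already held JUNB before any cytokine, and CEBPB was listed at more of them with IFNg than in untreated cells. With IFNg alone, a JUNB peak overlapped 1122 of the 1297 sites (86.5%, exact 95% interval 84.5 to 88.3%), where 16.0% of all STAT6 IL4 peaks had one. In untreated cells the count was 1060 (81.7%, 79.5 to 83.8%), against 21.6% of all STAT6 IL4 peaks. Since the sites were chosen for a JUNB peak with IFNg+IL4, shares are set beside those of shared sites that had JUNB but no CEBPB. Of those, 77.9% (weighted to the sites' strength 74.1%) had JUNB with IFNg and 71.6% (weighted 69.7%) in untreated cells, both below the shares at the STAT6-JUNB-CEBPB sites. By its values, the JUNB list of untreated cells was limited by p where all others were limited by q, and with its peaks of −log10 q of at least 2 alone the untreated share was 71.9% at the sites, against 57.0% at shared sites with JUNB only and 13.8% of all STAT6 IL4 peaks. Intervals here and below cover counting error in 1 library only.

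For CEBPB with IFNg, 1249 sites (96.3%, 95.1 to 97.3%) had a peak, against 28.8% of all STAT6 IL4 peaks. In untreated cells 714 sites (55.1%, 52.3 to 57.8%) did, against 10.1%. Shared sites with CEBPB but no JUNB had CEBPB in 94.6% with IFNg (weighted 92.7%) and in 65.8% in untreated cells (weighted 62.6%). In untreated cells the share was thus lower at the STAT6-JUNB-CEBPB sites than at CEBPB sites without JUNB. Sites with CEBPB listed with IFNg but not in untreated cells numbered 535 (41.2%), against 28.9% of sites with CEBPB only. No site held CEBPB in untreated cells but not with IFNg, where 0 of 1297 allows up to 0.284% by the exact interval. This was no trait of these sites: it was 1 of all 24927 STAT6 IL4 peaks (0.00401%). At shared sites with JUNB only and with CEBPB only it was 0. The CEBPB list of IFNg was the longest of the 3, with 21499 peaks, against 6278 with IFNg+IL4 and 5540 untreated. With as many of the strongest peaks taken from every list of a factor, which left 1165 sites by the same rule, the share with CEBPB was 68.7% with IFNg and 60.2% untreated, and with JUNB 79.2% with IFNg and 73.6% untreated. Of all STAT6 IL4 peaks 10.9% and 10.1% had CEBPB and 12.4% and 14.3% JUNB under that limit.

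Taking both factors, 1110 sites (85.6%) held JUNB and CEBPB with IFNg and 652 (50.3%) in untreated cells, and 615 (47.4%) held both in all 3 states. Of all STAT6 IL4 peaks, 11.3%, 5.59% and 3.73% did. In untreated cells JUNB without CEBPB was the next most frequent state, at 408 sites (31.5%), ahead of neither at 175 (13.5%) and CEBPB without JUNB at 62 (4.78%), against 16.0%, 73.8% and 4.56% of all STAT6 IL4 peaks in the same order. Of the 175 sites with neither factor in untreated cells, 94 had both with IFNg, and 31 of the 1297 (2.39%) had neither in untreated cells or with IFNg. Taken singly, JUNB was missing from both states at 7.63% of sites and 74.7% of all STAT6 IL4 peaks, and CEBPB at 3.70% and 71.2%. Untreated states here and below rest on the JUNB list limited by p. With −log10 q of at least 2, untreated JUNB was listed at 932 sites in place of 1060, and the states were not recounted. Those 175 sites were strong STAT6 sites, with a median −log10 p of 130.7 in the IL4 list, against 50.9 for the 652 with both in untreated cells. The 325 strongest sites by STAT6 held JUNB least often: 65.2% with IFNg and 68.6% in untreated cells, against 95.7% and 84.3% of the 324 weakest. For CEBPB these shares were 89.2% and 45.8% of the strongest and 98.5% and 56.5% of the weakest. Shared sites with JUNB only moved the same way when weighted to the greater strength of these sites. Their JUNB share went from 77.9% to 74.1% with IFNg and from 71.6% to 69.7% in untreated cells. A fall with strength is thus not shown to be particular to the STAT6-JUNB-CEBPB sites.

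**Figure D4:**
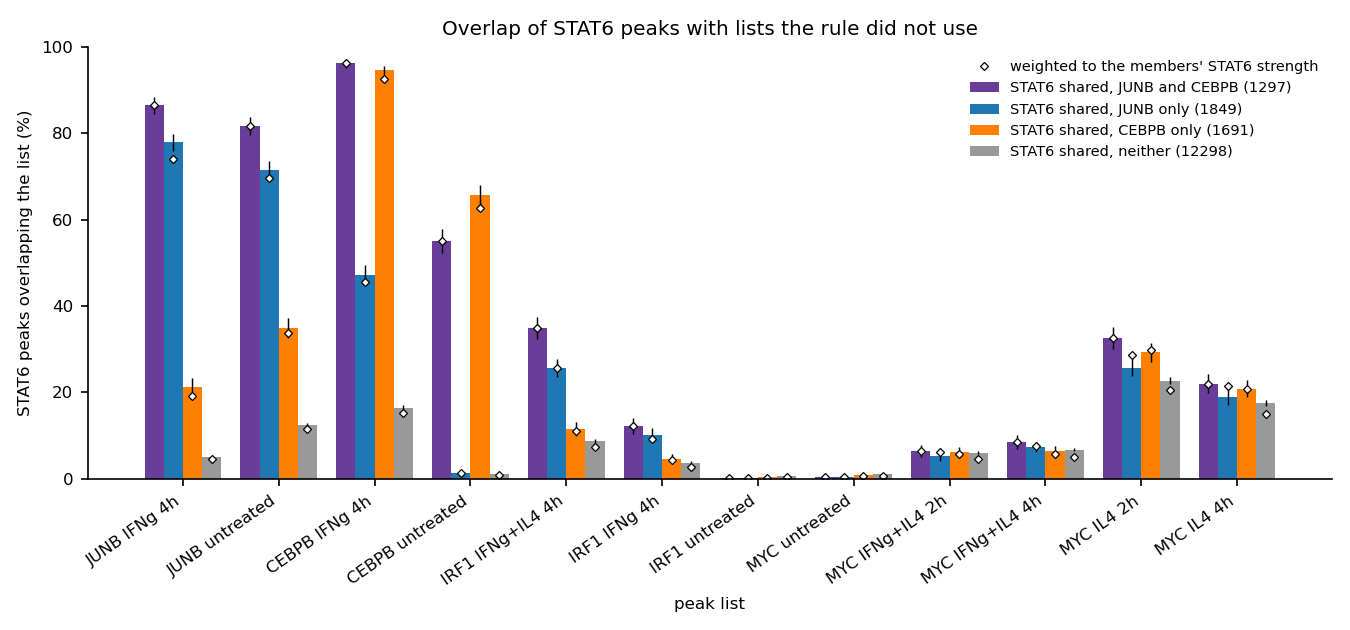
Share of STAT6 peaks that overlapped each list the rule did not use (y axis, %), for shared sites with JUNB and CEBPB (1297), JUNB only (1849), CEBPB only (1691) and neither (12298). Bars are shares, lines exact 95% intervals for counting error, and diamonds shares weighted to the strength of the first set. IRF1 with IFNg+IL4 overlapped 34.8% of the first set and 8.74% of the last, while for MYC with IFNg+IL4 2 h the 4 sets lie between 5.14% and 6.32%.

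IRF1, a transcription factor that IFNg induces and that the rule did not use, was listed more often at the STAT6-JUNB-CEBPB sites than at the 3 comparison sets. With IFNg+IL4, an IRF1 peak overlapped 452 of the 1297 sites (34.8%, 32.3 to 37.5%), against 9.58% of all STAT6 IL4 peaks. At shared sites with JUNB only the share was 25.6% (weighted 25.7%), with CEBPB only 11.4% (weighted 11.05%) and with neither 8.74% (weighted 7.39%). With IFNg alone it was 157 sites (12.1%, 10.4 to 14.0%), against 3.84% of all STAT6 IL4 peaks, and 10.2%, 4.55% and 3.72% of the 3 comparison sets in the same order. In untreated cells IRF1 overlapped 3 sites (0.231%), against 0.433% of all STAT6 IL4 peaks. The share with IFNg+IL4 lay above that of sites with neither factor in all 10 strength classes and above that of sites with JUNB only in 9 of 10. In class 4 it was 24.6%, against 29.8% at sites with JUNB only.

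The list length bears on the 2 IRF1 states. The IRF1 list held 8226 peaks with IFNg+IL4, 4189 with IFNg and 244 in untreated cells. With as many of the strongest peaks in both treated lists, IRF1 overlapped 14.3% of 1165 sites with IFNg+IL4 (4.59% of all STAT6 IL4 peaks) and 11.8% with IFNg (3.84%). Of the 452 sites with IRF1 under IFNg+IL4, 155 also had it with IFNg and 297 did not. Among all shared STAT6 sites, which include these, 2194 had IRF1 under IFNg+IL4, of which 868 also had it with IFNg and 1326 did not. Where all summits had to lie within 100 bp, the IRF1 share with IFNg+IL4 was 28.2%, against 7.18% of all STAT6 IL4 peaks. Counted on the STAT6 peaks of IFNg+IL4 in place of IL4, IRF1 overlapped 35.3% of 1300 sites with IFNg+IL4 and 12.5% with IFNg, against 14.9% and 7.03% of all peaks of that STAT6 list, a smaller contrast than on the IL4 list.

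IRF1 was listed most often at sites where neither JUNB nor CEBPB had been listed in untreated cells. Of those 175 sites 99 had IRF1 with IFNg+IL4 (56.6%, 48.9 to 64.0%), against 176 of the 652 with both in untreated cells (27.0%, 23.6 to 30.6%). Sites with JUNB only or CEBPB only in untreated cells stood at 37.0% and 41.9%. The difference was present at both strengths: below the median STAT6 strength of the sites, 66.7% of 60 sites with neither and 21.2% of 345 with both had IRF1, and above it 51.3% of 115 and 33.6% of 307. With IFNg alone the IRF1 shares were 27.4% at sites with neither and 7.21% at sites with both. Sites with neither were also wider, at a median of 507 bp, against 427.5 bp with both, and width was not held equal. The comparison sets were not split by untreated state, so the difference is not shown to be particular to these sites.

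**Figure D5:**
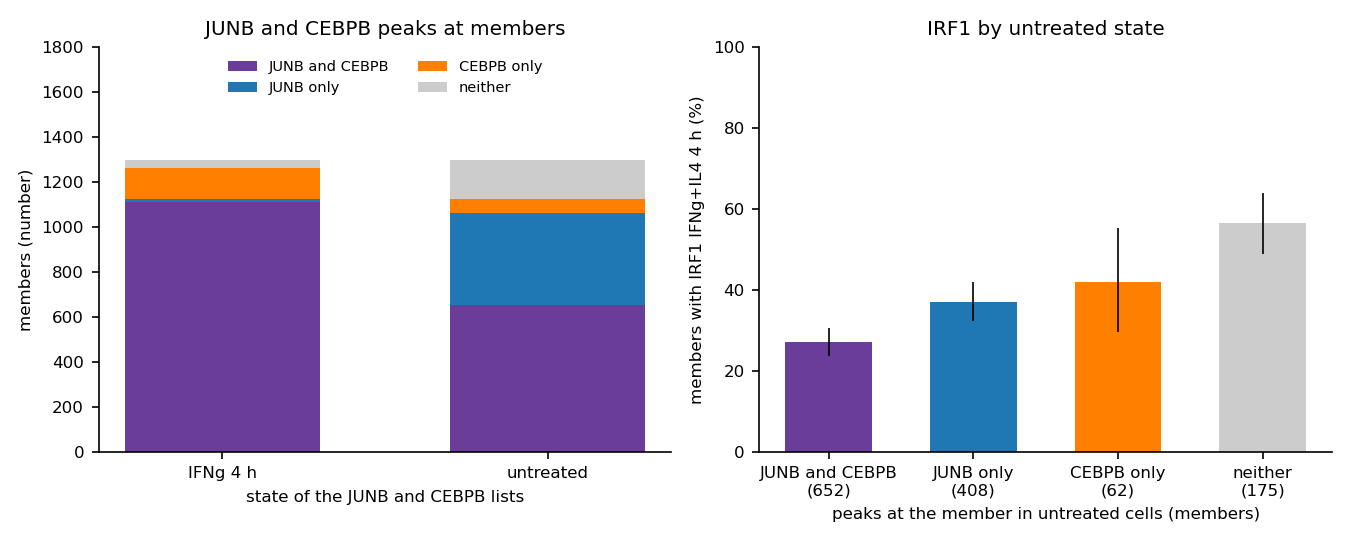
Left, number of STAT6-JUNB-CEBPB sites (members, y axis) at which JUNB and CEBPB, JUNB only, CEBPB only or neither was listed with IFNg 4 h and in untreated cells. Right, share of the sites with an IRF1 peak of IFNg+IL4 4 h (y axis, %, lines are exact 95% intervals) by their state in untreated cells, from 27.0% with both factors to 56.6% with neither.

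STAT6 itself ranked higher in its IFNg+IL4 list than in its IL4 list at sites with IRF1 under both IFNg+IL4 and IFNg. Both STAT6 lists chose the sites, so this is a description of ranks and not a test, and ranks in lists of unequal length show no change in binding. At the 155 sites with IRF1 under both IFNg+IL4 and IFNg, the median percentile of the STAT6 peak was 86.2 in the IFNg+IL4 list and 72.3 in the IL4 list. At the 297 sites with IRF1 under IFNg+IL4 alone it was 89.1 and 87.1, and at the 845 sites without it 76.9 and 77.8. A rank over 20 points higher with IFNg+IL4 was found at 27.7%, 7.41% and 7.34% of these 3 groups of sites. A weak peak has more room to rank higher, and the first group was the weakest with IL4. Within the 324 weakest sites the 3 shares were 64.4% of 59, 47.5% of 40 and 25.3% of 225 sites. Their median percentiles in the IL4 list were 32.7, 45.3 and 44.2, so the first group was still the weakest and strength was not held equal. Within the next 324 sites by strength the shares were 15.2% of 33, 4.55% of 66 and 2.22% of 225 sites. Among sites of at least the median STAT6 strength the share was 0 in all 3 groups. Over all 17135 shared STAT6 sites, 28.5% of those with IRF1 under both states and 8.04% of those with none under IFNg+IL4 ranked over 20 points higher, so the pattern is not one of the STAT6-JUNB-CEBPB sites alone.

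MYC, a growth regulator that binds E-boxes, overlapped fewer sites with IFNg+IL4 than with IL4 in the lists as deposited, an order not kept with lists of equal length. With IFNg+IL4 there were 82 sites with MYC at 2 h (6.32%) and 109 at 4 h (8.40%), against 5.10% and 6.02%. With IL4 there were 423 at 2 h (32.6%, 30.1 to 35.2%) and 285 at 4 h (22.0%, 19.7 to 24.3%), against 22.4% and 16.7%. In untreated cells it was 5 sites (0.386%), against 0.806% of all STAT6 IL4 peaks. At shared sites with neither JUNB nor CEBPB the IL4 shares were 22.7% at 2 h (weighted 20.5%) and 17.5% at 4 h (weighted 15.03%). The MYC lists of IL4 held 13211 and 9645 peaks, against 3034 and 3402 with IFNg+IL4. With the 4 treated lists held to equal length, MYC overlapped 6.44% and 7.30% of 1165 sites at 2 h and 4 h of IFNg+IL4, against 5.10% and 5.48% of all STAT6 IL4 peaks. With IL4 it then overlapped 5.49% of these sites at 2 h and 5.49% at 4 h, against 6.22% and 5.97%. At that length the shares were higher with IFNg+IL4 than with IL4, but the counting intervals overlapped. They ran from 5.10 to 8.00% and from 5.87 to 8.94% at 2 h and 4 h of IFNg+IL4, and from 4.26 to 6.96% at both times of IL4. The IL4 backgrounds lay inside these intervals. For IFNg+IL4 the background lay at the lower end of the interval at 2 h and below it at 4 h. With IFNg+IL4 the shares were below the background under a reciprocal overlap of 50%, at 1.45% and 2.00% of 551 sites at 2 h and 4 h, against 1.99% and 2.53%.

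The sites lay away from gene starts. Among the 1268 sites on chromosomes with annotated starts in the promoter table, 55 summits (4.34%, 3.28 to 5.61%) were within 1 kb of a start, against 13.9% of all STAT6 IL4 peaks, 5.33% of shared sites with JUNB only, 11.4% with CEBPB only and 15.6% with neither. Weighted to the sites' strength, the last 3 shares were 5.06%, 9.99% and 10.5%. Another 532 summits (42.0%) lay inside a gene beyond that distance, against 46.4% of all STAT6 IL4 peaks, and 681 (53.7%) outside genes, against 39.7%. The median distance to a start was 40.3 kb, against 35.5 kb for shared sites with JUNB only, 24.3 kb with CEBPB only, 22.8 kb with neither and 25.02 kb for all STAT6 IL4 peaks. The MYC shares were also split by position, with no test of the difference. With IL4 2 h MYC overlapped 36.4% of the 55 sites near starts and 32.5% of the 1213 farther ones, while at shared sites with neither factor it overlapped 63.3% of 1855 near starts and 15.3% of 10072 farther ones.

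The sites were mostly single. With gaps of at most 12.5 kb joined, 1082 of 1183 groups held 1 site and 11 held 3 or more, the largest being 4 sites in Tns3 and 4 near Ell2. The median gap between neighbouring sites was 654714 bp. No comparison set was grouped in this way, so the spacing is not shown to be particular to these sites. Chromosome X had 14 sites among 588 STAT6 IL4 peaks (2.38%), and chromosome 16 had 70 among 1055 (6.64%). Over all chromosomes used there were 1297 among 24927.

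Genes were counted when a summit lay within 20 kb of their span, and a site near a gene is not shown to act on it. A STAT6-JUNB-CEBPB site was near 973 of 21887 protein-coding genes (4.45%), and any STAT6 IL4 peak near 10891 (49.8%). Within 5 kb these shares of genes were 2.86% and 37.6%, and within 50 kb 7.45% and 62.9%. Of the 30 IL4 response genes, 11 had such a site and 28 any STAT6 IL4 peak. Of the 35 IFNg response genes 5 had a site and 32 a STAT6 peak, and of the 25 inflammatory genes 11 and 23. The counts were 2 of 20 AP-1, ATF and C/EBP genes (18 with a STAT6 peak), 5 of 28 cytokine receptor and JAK-STAT genes (27) and 10 of 25 macrophage identity genes (25). Among 25 markers of other cell types the culture could hold 1 had a site (Ms4a1, 9 with a STAT6 peak). The lists hold no expression, so the labelled cell type could be set only against these nearby peaks. Expressed and long genes collect more peaks, which these counts do not correct for.

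The 11 IL4 response genes were Arg1, Mgl2, Ccl24, Pdcd1lg2, Myc, Pparg, Batf3, Flt1, Kdm6b, Bcl6 and Tfec, with 13 sites between them. At the site 2.8 kb from Arg1, the arginase of alternative activation (chr10:24929944-24930778), STAT6 had 302 with IFNg+IL4 and 359.5 with IL4, JUNB 10.7 with IFNg+IL4 alone, and CEBPB 30.4, 22.3 and 10.5 with IFNg+IL4, IFNg and untreated. IRF1 had 8.1 with IFNg+IL4 and MYC 9.3 after 2 h of IL4. JUNB was thus listed there under IFNg+IL4 but in neither other state, as at Tfec and at the nearer of 2 Batf3 sites.

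At Tfec (chr6:16898161-16899014), whose promoter window is printed above, STAT6 had 344 with IFNg+IL4 and 333 with IL4, JUNB 22.3 with IFNg+IL4, CEBPB 118, 114 and 18.0 in the 3 states and IRF1 12.8 with IFNg+IL4. The site in Pparg, the lipid-sensing nuclear receptor gene (chr6:115375122-115376030), held JUNB at 26.5, 21.2 and 6.9 and CEBPB at 30.1, 45.1 and 11.8 with IFNg+IL4, IFNg and untreated, so both factors were listed in every state. STAT6 stood at 335 with IFNg+IL4 and 310.2 with IL4, and MYC at 11.4 after 2 h of IFNg+IL4 and at 15.5 and 25.2 after 2 h and 4 h of IL4. The Pdcd1lg2 site, in the gene of the checkpoint ligand PD-L2 (chr19:29419225-29420555), had JUNB at 66.7, 86.5 and 2.9 and CEBPB at 12.3 and 52.3 with IFNg+IL4 and IFNg, and no untreated CEBPB.

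Bcl6, a repressor gene, held 2 sites. The one inside the gene (chr16:23988211-23989488) had IRF1 peaks of 137, 93.9 and 66.2 with IFNg+IL4, IFNg and untreated, 1 of the 3 sites with IRF1 in untreated cells. STAT6 had 292 with IFNg+IL4 and 349.9 with IL4 there, JUNB 10.6 and 10.96 with IFNg+IL4 and IFNg, and CEBPB 61.8, 138 and 19.1 in the 3 states. The site in Kdm6b, a histone demethylase gene, carried MYC at 11.1 and 14.3 after 2 h and 4 h of IFNg+IL4 and at 48.0 and 38.9 after 2 h and 4 h of IL4. Sites near Mgl2, a lectin gene, and Ccl24, an eosinophil chemokine gene, held JUNB in every state and no untreated CEBPB. The site 9.4 kb from Myc had STAT6 at 24.2 with IFNg+IL4 and 15.2 with IL4, and JUNB at 62.8, 82.0 and 49.2. Of the 13 sites, 9 held JUNB and 13 CEBPB with IFNg, 9 and 8 in untreated cells, and 6 IRF1 with IFNg+IL4.

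The 5 IFNg response genes were Cxcl10, Cd40, Gbp2, Gbp5 and Slamf8, with 7 sites, of which 4 held IRF1 with IFNg+IL4. At the site 0.8 kb from Gbp2, a guanylate-binding protein gene of antimicrobial defence, whose nearest gene is Gbp2b (chr3:142619781-142620378), STAT6 had 156 with IFNg+IL4 and 16.4 with IL4, and IRF1 119 with IFNg+IL4 and 33.3 with IFNg. JUNB had 21.9, 23.0 and 7.7 and CEBPB 17.4, 57.5 and 20.4 with IFNg+IL4, IFNg and untreated. The 2 sites within 20 kb of Gbp5 had STAT6 at 115 and 127 with IFNg+IL4 and at 189 and 255 with IL4, and IRF1 at 22.7 and 73.5 with IFNg+IL4. The one with 255 (chr3:142529950-142530697) had its summit 87 bp before a start of Gbp7. Near Cd40, a costimulatory receptor gene, the site 0.4 kb away held IRF1 at 37.0 and 15.6 with IFNg+IL4 and IFNg. The site 19.7 kb from Cxcl10, a T cell chemokine gene, lay inside Art3 (chr5:92368402-92368700). It had STAT6 at 187 with IFNg+IL4 and 22.6 with IL4, JUNB at 26.7, 67.2 and 52.3 and CEBPB at 84.8, 228 and 46.3 in the 3 states, and no IRF1 peak.

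The 11 inflammatory genes were Il1b, Il1a, Il1rn, Ccl2, Ccl3, Ccl4, Ccl7, Nfkb1, Tnfaip3, Zfp36 and Dusp1, with 13 sites. JUNB was listed with IFNg and untreated at 12 of them, CEBPB with IFNg at 12 and untreated at 8, and IRF1 with IFNg+IL4 at 3. At the Il1rn promoter (chr2:24344984-24345398), whose letters are given above, STAT6 had 72.2 with IFNg+IL4 and 102 with IL4. CEBPB there had 84.5, 314 and 102 with IFNg+IL4, IFNg and untreated, and JUNB 19.6, 20.7 and 6.7. Neither IRF1 nor MYC was listed.

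At the site 2.3 kb from Il1b, the inflammatory cytokine gene, STAT6 had 10.9 with IFNg+IL4 and 25.5 with IL4, JUNB 17.0, 16.9 and 8.2, and CEBPB 24.8, 152 and 41.0. The Tnfaip3 promoter site had STAT6 at 223 with IFNg+IL4 and 162 with IL4, JUNB at 58.5, 46.9 and 21.7, and CEBPB at 30.7 and 77.7 with IFNg+IL4 and IFNg. Zfp36, which encodes the RNA-binding protein tristetraprolin, had 2 sites, 1 with all 5 factors. Ccl2 had 3 sites within 20 kb, and the Ccl3 and Ccl4 genes, neighbours that encode macrophage chemokines, shared 1 site. Nfkb1 was the exception in the list: its site held JUNB at 7.7 and CEBPB at 18.5 with IFNg+IL4 and neither factor in the other 2 states.

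Among AP-1, ATF and C/EBP genes, sites lay near Batf3 and Atf3, both of leucine zipper factors and neighbours on chromosome 1. The site at the Atf3 start (chr1:191183040-191183587), the window with the composite letters, had CEBPB at 124, 199 and 69.3 and JUNB at 11.7, 14.7 and 5.5 with IFNg+IL4, IFNg and untreated, and STAT6 at 30.1 with IFNg+IL4 and 45.2 with IL4. A second site 14.7 kb from Atf3 had STAT6 at 297 with IFNg+IL4 and 214 with IL4 and IRF1 at 25.8 with IFNg+IL4. Of the receptor and signalling genes, Il10rb, Il6ra, Csf3r, Jak2 and Pim1 had sites. Near Jak2, the kinase of the IFNg receptor, a strong STAT6 site (257 with IFNg+IL4, 245 with IL4) was listed for JUNB and CEBPB with IFNg+IL4 alone. A second site, 10.1 kb from Jak2, with weak STAT6 (13.3 with IFNg+IL4, 18.9 with IL4), held both in every state. The Il6ra site had JUNB at 85.5, 94.0 and 93.2 and CEBPB at 48.5, 144 and 50.3, with STAT6 at 16.4 with IFNg+IL4 and 19.8 with IL4.

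The genes with most sites within 20 kb were Creb5 with 7, Lpp with 6, Auh with 5, and Cd36 and Cttnbp2nl with 4, a number that Pde4b, Pla2g4a, Ptprj and Tns3 also had. Creb5 and Lpp, a cytoskeletal adaptor gene, span 413 kb and 599 kb and also held 27 and 26 STAT6 IL4 peaks. The 7 Creb5 sites ran from 10.6 to 345 in the STAT6 IL4 list. Of these 6 held JUNB in untreated cells and 3 CEBPB, and the strongest (chr6:53463191-53464009) was listed for JUNB at 21.4 and CEBPB at 29.7 with IFNg+IL4 but in neither other state. Auh, an enzyme gene of leucine breakdown, spans 94.6 kb and had 5 of its 9 STAT6 IL4 peaks among the sites. The one 9.9 kb from it had IRF1 at 70.1 and 30.6 with IFNg+IL4 and IFNg, and STAT6 at 45.2 with IFNg+IL4 and 10.2 with IL4. Of the 9 STAT6 IL4 peaks near Cd36, 4 were STAT6-JUNB-CEBPB sites, all 4 with JUNB and CEBPB in all 3 states.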

How the data were processed

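The data were ChIP-seq peak lists of 16 immunoprecipitated libraries and 1 input library. The submitters' processing notes name Bowtie2 2.2.6, MACS2 2.1.0.20150731 and the build mm10 (GRCm38), with no settings. Each list comes from 1 library, without pooling. Per peak, the deposited lists give a score, a fold enrichment ratio over the control, −log10 p, −log10 q and the summit. In the deposited values the score is 10 times −log10 q, except in the untreated JUNB list, where it is 10 times −log10 p. Read depth is unknown from the lists, so neither depth nor read intervals are given.

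From these lists, peaks of chromosomes 1 to 19 and the sex chromosomes entered, and 0 to 39 peaks per list that overlapped an input peak were removed. Peaks were joined by an overlap of at least 1 bp. Shares carry exact (Clopper-Pearson) 95% intervals, which cover counting error only. Comparison sets were weighted to the sites' distribution over 10 classes of −log10 p. Only the overlap step was tested on simulated data. Gene starts came from RefSeq GRCm38.p6 (17492 of 21887 protein-coding genes, none on chromosome 18, so position was read at 1268 sites). Python 3.11.15, numpy 2.4.6, pandas 2.3.3, scipy 1.17.1 and matplotlib 3.10.9 were used.

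Genes named were the nearest genes of the 15 strongest sites by STAT6 IL4 and of the 5 strongest by JUNB and by CEBPB, all genes of 5 lists with a site within 20 kb, the 5 genes with most sites and the 5 weakest sites. Genes and sites beyond these, among them the promoter windows shown, the groups of neighbouring sites and the sites at the edge of the rule, were chosen after their values were seen. The sites and the gene lists were chosen with earlier results of these data known. Alternatives varied the overlap, the threshold, the list lengths, the starting list and the gene windows. A further gene list is not reported here.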

Additional observations from a re-analysis of the deposited data

Results flagged for a closer look

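In the lists as deposited, the share of STAT6-JUNB-CEBPB sites with a MYC peak moved in opposite directions between 2 h and 4 h under the 2 treatments. With IFNg+IL4 it was 6.32% at 2 h and 8.40% at 4 h, a difference of 2.08 percentage points. With IL4 it was 32.6% at 2 h and 22.0% at 4 h, a difference of -10.6 percentage points. Over all STAT6 IL4 peaks the shares were 5.10% and 6.02% with IFNg+IL4, and 22.4% and 16.7% with IL4, at 2 h and 4 h. The MYC lists moved the same way in length, with 3034 and 3402 peaks with IFNg+IL4 and 13211 and 9645 with IL4. With the 4 lists held to equal length the shares were 6.44% and 7.30% with IFNg+IL4 and 5.49% and 5.49% with IL4 at 2 h and 4 h, so the IL4 difference was not present there. The difference between treatments was not tested, since each list is 1 library.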

How the results depend on the processing

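No paired analysis was possible because each group is 1 library. Counting on the peaks of the STAT6 IFNg+IL4 list gave 1300 sites and left the shares with JUNB, CEBPB, IRF1 and MYC within their counting intervals, but IRF1 then overlapped 14.9% and 7.03% of all STAT6 peaks with IFNg+IL4 and IFNg, against 9.58% and 3.84% on the IL4 list. Position and gene lists were not recomputed on it. Searches for motifs in windows around all sites, planned with 3 widths, were not run, since no genome was at hand. Depth is unknown, and the untreated IRF1 and MYC lists hold 244 and 495 peaks, which limits their counts. Where a value moved, the cause was not tested beyond the stricter rule or shorter list itself.
A reciprocal overlap of 50% left 551 sites, all among the 1297, and gave shares of 74.8% for untreated JUNB, 80.2% for CEBPB with IFNg, 17.8% for IRF1 with IFNg+IL4 (4.85% of all STAT6 IL4 peaks), 7.08% for IRF1 with IFNg, 0 for untreated IRF1, 1.45% and 2.00% for MYC at 2 h and 4 h of IFNg+IL4, and 15.2% and 8.89% at 2 h and 4 h of IL4. For MYC all STAT6 IL4 peaks then stood at 1.99% and 2.53% with IFNg+IL4, above the sites, and at 10.5% and 8.00% with IL4.
Summits within 100 bp left 967 sites, all among the 1297, with 82.6% for JUNB with IFNg and 77.7% untreated, 91.4% for CEBPB with IFNg and 51.2% untreated, 28.2% and 8.07% for IRF1 with IFNg+IL4 and IFNg, 4.55% and 5.07% for MYC at 2 h and 4 h of IFNg+IL4, and 23.5% and 15.6% at 2 h and 4 h of IL4, where all STAT6 IL4 peaks had 3.45%, 4.07%, 15.4% and 11.5% for MYC.
With −log10 q of at least 5 in every list, 1114 sites had 59.2% for untreated JUNB, 30.3% and 10.2% for IRF1 with IFNg+IL4 and IFNg, 0.0898% for untreated MYC, 3.77% and 6.01% for MYC at 2 h and 4 h of IFNg+IL4, and 27.5% and 18.9% at 2 h and 4 h of IL4. All STAT6 IL4 peaks had 0.561% for untreated MYC, 4.04% (above the sites) and 4.66% with IFNg+IL4, and 19.1% and 14.1% with IL4. Under these 3 settings 6.78 to 28.3% of all STAT6 IL4 peaks held JUNB or CEBPB of a list and 1.95 to 8.39% IRF1 of a treated list, below the sites' share in every case.
With lists of equal length, JUNB stood at 79.2% with IFNg and 73.6% untreated, CEBPB at 68.7% and 60.2%, IRF1 with IFNg+IL4 at 14.3%, and MYC at 5.49% at both times of IL4, against 6.44% and 7.30% at 2 h and 4 h of IFNg+IL4. The order of the treatments for MYC was thus not kept, and the counting intervals of the MYC shares overlapped. Untreated JUNB peaks with −log10 q of at least 2 gave 71.9%.
With 5 kb in place of 1 kb, 11.8% of sites were near a start. Gene windows of 5 kb counted 7 IL4 response, 3 IFNg response, 2 receptor and JAK-STAT, 5 macrophage identity and 0 other cell type genes, where 2.86% of all genes had a site. Windows of 50 kb counted 19 IL4 response, 11 IFNg response, 9 receptor and JAK-STAT and 2 other cell type genes, where 7.45% of all genes had one.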

Other observations

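Macrophage identity genes with a STAT6-JUNB-CEBPB site within 20 kb were Cd68, Adgre1, Itgam, Fcgr2b, Lyz2, Lyz1, Runx1, Ctss, Ctsb and Tlr4. Near Tlr4, the receptor for lipopolysaccharide, 3 sites lay within 20 kb. The strongest (chr4:66851350-66852509) had −log10 p of 347.6 for STAT6 with IFNg+IL4 and 342.9 with IL4, 10.8 for JUNB with IFNg+IL4 and 3.6 untreated, and 64.7, 91.2 and 44.6 for CEBPB with IFNg+IL4, IFNg and untreated. Lyz1 and Lyz2, the lysozyme genes, shared a site with CEBPB at 70.9, 276 and 127 and STAT6 at 29.0 with IFNg+IL4 and 53.1 with IL4. At the site in Itgam, which encodes the integrin CD11b, STAT6 had 9.3 with IFNg+IL4 and 14.7 with IL4, and CEBPB 53.7, 227 and 64.9.
Sites within 20 kb of Pla2g4a, which encodes a cytosolic phospholipase, differed among themselves. One (chr1:149840786-149841653) held JUNB at 95.04, 177 and 3.5 with IFNg+IL4, IFNg and untreated and IRF1 at 102 and 34.3 with IFNg+IL4 and IFNg. Another (chr1:149893835-149894391) held STAT6 at 266 with IFNg+IL4 and 247 with IL4, JUNB at 14.2 and CEBPB at 23.1 with IFNg+IL4, and no other peak. Both were chosen after their values were seen.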
